A study of Homo sapiens with 4 samples.

Results

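The genes described here encode matrix metalloproteinases, their tissue inhibitors and the urokinase plasminogen activator, 9 genes of the 61541 in the count table: *MMP1*, *MMP2*, *MMP3*, *MMP9*, *MMP13*, *MMP14*, *TIMP1*, *TIMP2* and *PLAU*. They were chosen by symbol, and each matched 1 Ensembl gene. RNA sequencing had been performed on MDA-MB-231 cells, a long-established line of human breast cancer cells, in 2 groups of 2 libraries. Control cells had been passaged serially in normal medium without added metal, and cadmium-resistant cells had been passaged long term in medium with cadmium sulfate, at a final 10 µM. All 4 libraries come from the same parental line, and nothing in the sources used here says whether the cadmium replicates were separate selections, so the spread between them may be partly technical. Control libraries are called control 2 and control 3 after their numbers in the count table, and cadmium libraries are called cadmium 1 and cadmium 2.

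Matrix metalloproteinases are zinc-dependent enzymes that cut collagens and other proteins of the extracellular matrix, and most are secreted as inactive precursors. TIMPs bind their active site and block them. Urokinase, encoded by *PLAU*, turns plasminogen into plasmin at the cell surface, and plasmin in turn degrades matrix and can activate several metalloproteinase precursors. In breast cancer cells this system is known for its part in invasion, and *MMP1* and *PLAU* are textbook targets of the AP-1 factors FOS and JUN.

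*MMP1*, the interstitial collagenase, was higher in cadmium-resistant cells and was the only one of the 9 genes that passed the test. *MMP14*, the membrane-anchored metalloproteinase and by far the most abundant one here, was 1.44 times as high in cadmium-resistant cells with little spread, and it did not pass the test. *MMP2*, *MMP3*, *MMP9* and *MMP13* were close to silent in every library. *TIMP1*, *TIMP2* and *PLAU* were abundant in both groups and differed between the groups by no more than 1.28-fold in either direction on mean normalized counts. Outside the 9 genes, the largest difference in the plasminogen system was in *SERPINB2*, an inhibitor of urokinase, which was higher in cadmium-resistant cells.

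Libraries held between 51934729 and 61916007 reads assigned to genes. Where no read was seen, counting error over independent reads allows up to 3 reads, which is between 0.0485 and 0.0578 CPM (a count scaled to the library total). Each mate of a read pair was counted, so reads are not independent and the true limits are higher. Such limits cover counting error only. The controls stood further apart than the cadmium libraries: of 12924 genes averaging 100 or more normalized counts, 14.2% were over 2-fold apart in the control pair and 0.317% in the cadmium pair. Markers of mesenchymal breast cancer cells were high in every library, with *VIM* between 571 and 715 and *AXL* between 1276 and 1426 TPM (counts scaled by gene length and then by library). The epithelial and luminal list of 6 was mixed. The hormone receptor genes *ESR1* and *PGR* stayed at or below 0.153 TPM, while *KRT19*, an epithelial keratin, reached 486 to 822 TPM. *GATA3* lay between 10.9 and 21.1 TPM. The controls differed in *EPCAM*, at 71.9 TPM in control 2 and 21.3 in control 3, and in *CDH1*, at 1.275 and 7.91. The cadmium libraries had 25.1 and 22.6 TPM of *EPCAM* and 2.19 and 1.49 of *CDH1*. Of the fibroblast markers, *DCN* and *POSTN* were at or near 0 and the list of 5 summed to between 6.18 and 9.19 TPM, mostly from *PDGFRB*. The leukocyte and macrophage list of 5 summed to between 7.82 and 12.4 TPM. Within this list the controls differed in *PTPRC*, with 2 reads in control 2 and 135 in control 3, against 37 in cadmium 1 and 43 in cadmium 2. In bulk RNA, fewer cells expressing a gene and less RNA per cell cannot be told apart.

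Promoter windows are shown for 2 genes because the study searched MTF-1 sites for motifs of FOS and JUN: *SERPINB2*, which had the largest change in this system, and *MMP14*, the most abundant metalloproteinase. The study searched around the centres of binding peaks, and its gained and lost peaks lay mostly away from gene starts. The promoter windows here therefore do not test its finding. The sequences are from RefSeq on GRCh38.p14 and cover the 250 bases before the annotated start. The *SERPINB2* window lies at chr18:63887455-63887704 and the *MMP14* window at chr14:22836335-22836584, both on the plus strand. Capitals mark a match to TGANTCA, which reads the same on both strands. This is a loose form of the AP-1 motif that accepts any central base, so a match need not be a consensus site.
SERPINB2: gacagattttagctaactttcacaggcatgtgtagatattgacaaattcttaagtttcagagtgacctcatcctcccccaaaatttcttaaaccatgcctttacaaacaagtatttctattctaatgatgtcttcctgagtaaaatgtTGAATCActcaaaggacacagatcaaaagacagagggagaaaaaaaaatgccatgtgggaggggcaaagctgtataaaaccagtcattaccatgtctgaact
MMP14: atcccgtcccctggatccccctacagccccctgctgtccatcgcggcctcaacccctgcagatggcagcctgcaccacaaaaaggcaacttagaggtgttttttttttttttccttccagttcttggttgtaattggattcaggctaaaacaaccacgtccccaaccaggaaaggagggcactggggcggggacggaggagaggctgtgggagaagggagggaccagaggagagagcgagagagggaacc
The *SERPINB2* window held 1 match, TGAATCA, from 102 to 96 bases before the start. The *MMP14* window, the *TIMP1* window and the windows of both annotated *PLAU* starts held none. No window of these 4 genes held the core of the metal response element, searched on both strands as TGCACNC or TGCGCNC. Among 35116 RefSeq promoter windows of this length, 6.57% held this loose AP-1 pattern and 24.8% held the metal response element core. The motifs describe letters only, and binding was not measured here. *MMP1*, *MMP2*, *MMP3*, *MMP9*, *MMP13* and *TIMP2* had no entry in the promoter table.

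Collagenases and stromelysin were examined first. *MMP1* (ENSG00000196611, chromosome 11, 102789401 to 102798160, hg38, minus strand) had 64 reads in control 2 and 12 in control 3, against 322 in cadmium 1 and 683 in cadmium 2. Both cadmium libraries lay above both controls, and libraries within each group differed from each other as well. The normalized count, which is the count divided by the DESeq2 size factor of its library, averaged 36.7 ± 33.8 (SD, n = 2) over the controls and 497 ± 250.2 (SD, n = 2) over the cadmium libraries, a 13.6-fold difference of the means. The log2 fold change was 3.76 ± 0.67 (SE), adjusted p = 2.01e-05 by DESeq2. Of the 9 genes, 6 passed the DESeq2 filter on mean count. *MMP1* was the only one called at an adjusted p-value below 0.1, against a background of 0.601% of 19816 tested genes called higher. None of the 9 was called lower, against 0.535%. *MMP1* ranked 17 by adjusted p-value and 22 by log2 fold change among the 119 genes called higher. On the log2 scale of the normalized count plus 1, the 4 cadmium-control pairings gave differences from 2.39 to 5.62, and control 2 exceeded control 3 by 2.16. The size of the change depended on the control, with a log2 fold change of 5.28 without control 2 and 3.03 without control 3. The call was lost without cadmium 2, where the log2 fold change was 3.12 and the DESeq2 adjusted p-value 0.360. The quasi-likelihood test of edgeR gave *MMP1* an unadjusted p-value of 0.00751 and an adjusted one of 0.674. That test called 0 of 19241 genes, although 7.39% of them had an unadjusted p-value below 0.05.

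**Figure D1:**
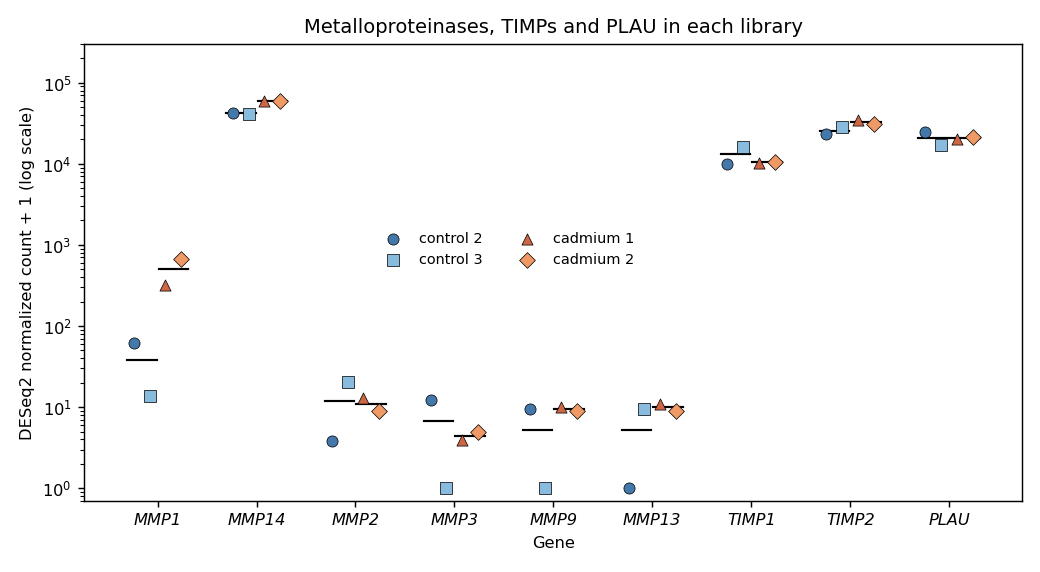
Normalized count plus 1 (log scale) of each of the 9 genes, with a point for each library and a short line at the mean of each group (n = 2). MMP1 has both cadmium points above both control points, MMP14 is high throughout with a small gap between the groups, and MMP2, MMP3, MMP9 and MMP13 stay at or below 19.1 normalized counts.

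*MMP1* lies in the metalloproteinase cluster of chromosome 11 together with *MMP3*, *MMP13*, *MMP7*, *MMP8*, *MMP10*, *MMP12*, *MMP20* and *MMP27*, so its neighbours were examined for a shift of the whole region. Over the 40 nearest genes averaging 100 or more normalized counts (94962620 to 110464884), the median log2 fold change was 0.19, with a range from -0.52 to 1.89. *MMP1* stood 3.56 above that median. *CASP4*, named after its values were seen, was the 1 neighbour called, with a log2 fold change of 1.13 at an adjusted p of 0.0952 in DESeq2. Genes beside it, also named after their values were seen, were raised without a call: *PDGFD* at 1.89, *CASP1* at 1.17 and *CARD16* at 1.68. *TMEM123* and *DCUN1D5*, closer to *MMP1*, had log2 fold changes of 0.09 and 0.10. The other genes of the metalloproteinase cluster were near the limit of detection. *MMP3*, stromelysin, had 12 reads in control 2 and 0 in control 3, against 3 in cadmium 1 and 4 in cadmium 2. *MMP13*, a collagenase, had 0, 8, 10 and 8 reads in the same order. The cadmium libraries lay between the controls for *MMP3* and close to control 3 for *MMP13*, and neither passed the DESeq2 filter on mean count. *MMP12*, *MMP20* and *MMP27* had no read in any library, *MMP7* had at most 12 reads and *MMP10* at most 4. *MMP8*, named after its values were seen, had 44 reads in control 2 and at most 5 in any other library, with a DESeq2 adjusted p-value of 0.948. *MMP3*, *MMP7*, *MMP10*, *MMP12*, *MMP13*, *MMP20* and *MMP27* had no adjusted p-value. Of the exon bases of *MMP1*, 8.14% are shared with *WTAPP1* on the other strand, where reads are dropped as ambiguous, and *WTAPP1* itself had at most 2 reads.

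**Figure D2:**
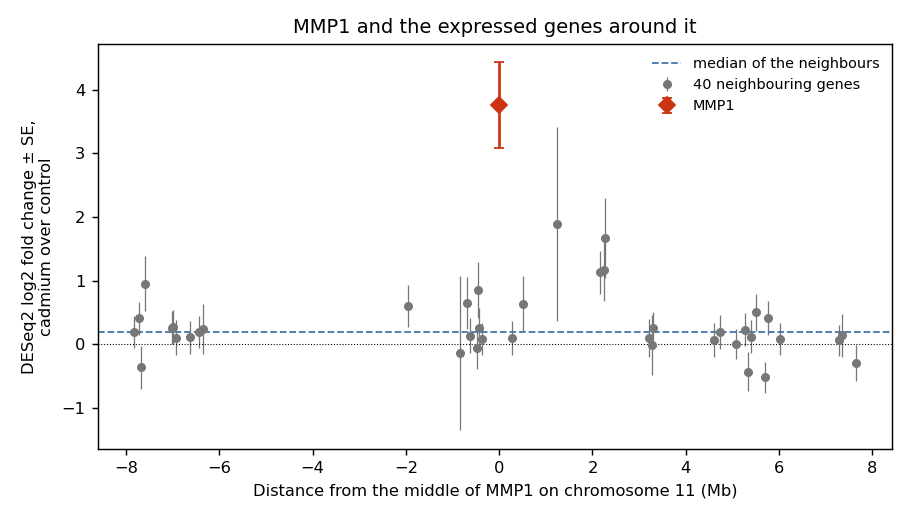
DESeq2 log2 fold change (cadmium over control, ± SE) of MMP1 and of its 40 nearest genes averaging 100 or more normalized counts, against the distance from the middle of MMP1 in Mb. MMP1 at 3.76 lies above all of its neighbours, whose median is 0.19 (dashed line).

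The rule for profiles most like that of *MMP1*, the smallest root mean square distance between centred log2 values over the 4 libraries, was applied to 12924 genes. It gave *PLCB4* (distance 0.41), *NGFR* (0.65) and *MYO7B* (0.75). *PLCB4* had normalized counts of 37.9 and 8.51 in the controls and 267 and 259.7 in the cadmium libraries. These profiles share libraries and the same gap between the controls, and 4 libraries are few, so the likeness is a description only.

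Gelatinases degrade denatured collagen and basement membrane collagen. *MMP2* (ENSG00000087245, chromosome 16, 55389700 to 55506691) had 3 reads in control 2 and 18 in control 3, against 12 in cadmium 1 and 8 in cadmium 2. The cadmium libraries lay between the controls, and adjusted p in DESeq2 was 1.00. *MMP9* (ENSG00000100985, chromosome 20, 46008908 to 46016561) had 9, 0, 9 and 8 reads in the same order and did not pass the filter on mean count. Control 2 was at the level of the cadmium libraries. Levels of both genes were at or below 0.318 TPM in every library as computed. Of the exon bases of *MMP9*, 18.4% are shared with *SLC12A5-AS1*, where reads are dropped.

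*MMP14* (ENSG00000157227, chromosome 14, 22836560 to 22849041) encodes a metalloproteinase anchored in the plasma membrane that cuts collagen and activates the *MMP2* precursor. It had 42061 normalized counts in control 2 and 41358 in control 3, against 59864 in cadmium 1 and 60143 in cadmium 2. Both cadmium libraries lay above both controls, and each group was tight, with means of 41709 ± 497 and 60003 ± 198 (SD, n = 2 each). The log2 fold change was 0.52 ± 0.23 (SE), and the 4 pairings gave differences from 0.51 to 0.54. The difference exceeded the spread within either group, but the DESeq2 adjusted p-value was 0.556, with an unadjusted p-value of 0.0255, and the edgeR adjusted p-value was 0.674, with an unadjusted one of 0.0110. When 1 control was left out, so that the spread came from the cadmium pair alone, *MMP14* was called, with an adjusted p-value of 2.38e-05 without control 2 and 7.59e-05 without control 3. When 1 cadmium library was left out, so that the spread came from the control pair, it was not called, with an adjusted p-value of 1.00 either way. Fits without a control called far more genes than the main fit, and fits without a cadmium library called far fewer. The median over the 40 nearest expressed genes of *MMP14* was 0.01. *MMP14* held between 98.1% and 99.9% of the summed TPM of the 6 metalloproteinases, and *MMP1* between 0.0520% and 1.86%.

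Of the inhibitors, *TIMP2* (ENSG00000035862, chromosome 17, 78852977 to 78925387) encodes the protein that also bridges MMP14 and the MMP2 precursor on the cell surface. Its normalized counts were 23103 in control 2 and 28024 in control 3, against 34394 in cadmium 1 and 31174 in cadmium 2. Both cadmium libraries lay above both controls, with a log2 fold change of 0.36 ± 0.26 (SE) and adjusted p = 0.944 by DESeq2. Without control 3 the adjusted p-value was 3.85e-04, again with the spread taken from the cadmium pair, whereas without control 2 it was 0.256 at a log2 fold change of 0.22. Without either cadmium library it was 1.00. Its 40 neighbours had a median log2 fold change of 0.13, where *TIMP2* had 0.36. Their median log2 ratio of control 3 over control 2 was 0.50, where *TIMP2* had 0.28. *MMP1*, *MMP14* and *TIMP2* were the 3 of the 9 genes with both cadmium libraries above both controls. They were among the 6 of the 9 that passed the filter on mean count. Over all genes that passed it, the share was 20.3%. None of the 9 had both cadmium libraries below both controls, against 19.9% of the genes that passed. *TIMP1* (ENSG00000102265, chromosome X, 47582408 to 47586789), a broad inhibitor of secreted metalloproteinases, had 9921 normalized counts in control 2 and 16277 in control 3, against 10119 in cadmium 1 and 10626 in cadmium 2. The cadmium libraries lay between the controls and close to control 2. Its log2 fold change was -0.34 ± 0.33 (SE), adjusted p = 1.00 by DESeq2. The sign depended on the control, at -0.65 without control 2, where the adjusted p-value was 1.35e-06, and 0.05 without control 3.

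*PLAU* (ENSG00000122861, chromosome 10, 73909177 to 73917496) differed between groups by less than its replicates differed from each other. Its normalized counts were 24740 in control 2 and 16816 in control 3, against 20408 in cadmium 1 and 21489 in cadmium 2, so that both cadmium libraries lay between the controls. The log2 fold change was 0.01 ± 0.30 (SE), adjusted p = 1.00 by DESeq2. It was 0.32 without control 2, with an adjusted p-value of 0.0499, and -0.25 without control 3. Of the exon bases of *PLAU*, 31.0% are shared with *C10orf55* on the other strand. Counting ignored strand and dropped reads in such stretches, so the level of *PLAU* is understated in every library. *C10orf55* had at most 103 reads.

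**Figure D3:**
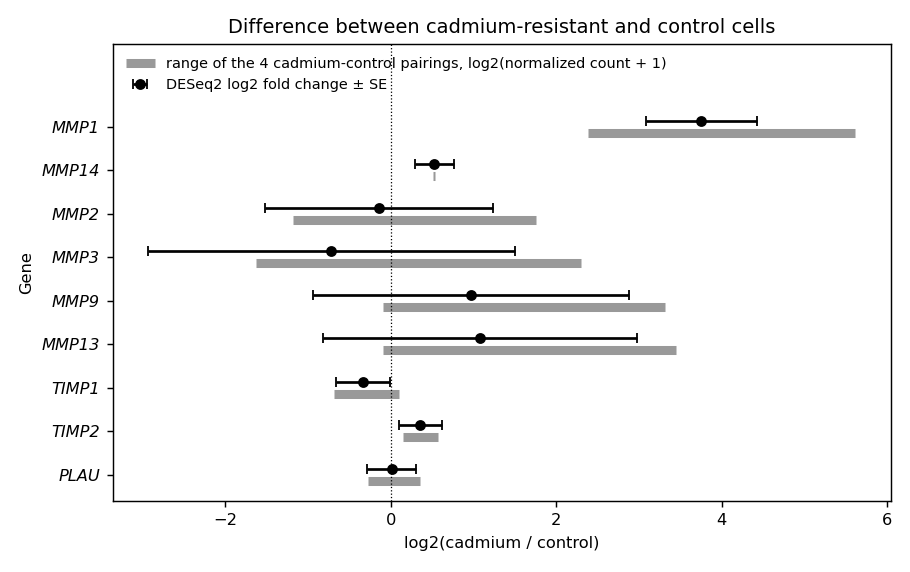
Log2 difference between cadmium-resistant and control cells for each of the 9 genes. Black points with bars are DESeq2 log2 fold changes ± SE, and grey bars span the 4 cadmium-control pairings on log2(normalized count + 1). The grey bars of MMP1, MMP14 and TIMP2 lie wholly above 0, that of MMP14 spans only 0.51 to 0.54, and all others cross 0.

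Levels of the 9 genes were compared with each other as TPM. In control cells the means were 689 TPM for *TIMP1*, 679 for *MMP14*, 527 for *PLAU* and 343 for *TIMP2*. *TIMP1* ranged from 497 to 880 TPM between the controls, a range that held both *MMP14* values and overlapped that of *PLAU*, so the order of these 3 was not resolved. *TIMP2*, at 297 and 389 TPM, lay below them as computed. Of its exon bases, 3.5% are shared with *CEP295NL* and 6.5% with *ENSG00000267601*, where reads are dropped, so its level is understated too. In cadmium-resistant cells *MMP14* came first with a mean of 1001 TPM, and both of its libraries lay above those of the other genes as computed. *TIMP1* was at 553 TPM, *PLAU* at 548 TPM and *TIMP2* at 449 TPM. The TPM of *PLAU* use its full exon length although reads in the stretch shared with *C10orf55* were dropped, so its order against *TIMP1* and *MMP14* was not resolved in either group. By mean, *MMP1* came next in both groups, at 0.984 TPM in control and 13.9 TPM in cadmium-resistant cells. The means of the remaining 4 genes lay at or below 0.279 TPM. In control 3, *MMP1* had 0.3645 TPM from 12 reads and *MMP2* 0.318 TPM from 18 reads, so their order was not resolved in control cells.

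Ratios within a library were then formed from TPM, as a description without a test. The 6 metalloproteinases summed to 661.5 TPM in control 2 and 701 in control 3, against 1028 in cadmium 1 and 1004 in cadmium 2. Divided by the sum of *TIMP1* and *TIMP2*, this gave 0.833, 0.552, 0.998 and 1.03 in the same order. Both cadmium libraries lay above both controls in this ratio. With *TIMP3*, another inhibitor that was abundant here, added to the denominator, the ratio was 0.525, 0.229, 0.564 and 0.575. The gap between control 2 and the cadmium libraries was then small beside the gap between the controls. The ratio of *MMP14* to *TIMP2* was 2.22, 1.80, 2.12 and 2.35, with cadmium 1 between the controls.

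**Figure D4:**
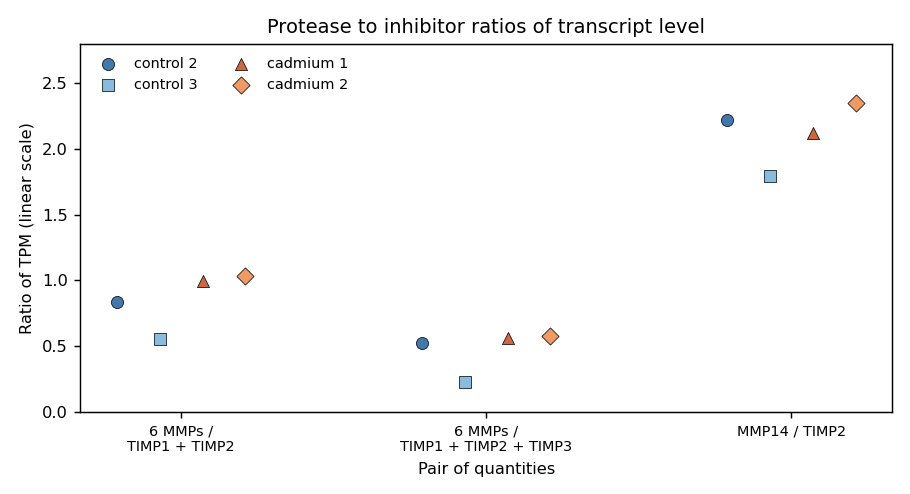
Ratios of summed TPM of proteases to inhibitors in each library, on a linear axis from 0. The 6 metalloproteinases over TIMP1 and TIMP2 have both cadmium points above the control points, whereas for MMP14 over TIMP2 the groups overlap.

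Further genes of the plasminogen system came from a list of 16, of which 15 passed the filter on mean count, 1 was called higher and 0 lower, beside 0.601% and 0.535% of all tested genes. *SERPINB2* (ENSG00000197632, chromosome 18, 63871692 to 63903888), whose promoter window is printed above and which encodes plasminogen activator inhibitor type 2, had 4 reads in control 2 and 8 in control 3, against 111 in cadmium 1 and 177 in cadmium 2. Both cadmium libraries lay far above the controls. The log2 fold change was 4.55 ± 0.71 (SE), adjusted p = 1.78e-07 by DESeq2, and the edgeR adjusted p-value was 0.674 with an unadjusted one of 7.14e-04. The fold change depended on the control, at 4.06 on the log2 scale against control 3 alone and 5.22 against control 2 alone. The median log2 fold change of its 40 neighbours was -0.35; their median log2 ratio of control 3 over control 2 was -0.84. The sign of their fold change is opposite to that of *SERPINB2*. With 4 and 8 reads in the controls, the ratio between controls of *SERPINB2* is too uncertain to set beside theirs. It remained low in abundance, at 4.82 TPM or less as computed. Of its exon bases, 20.0% are shared with *SERPINB10*, where reads are dropped, so its level is understated. *PLAUR*, the urokinase receptor, named after its values were seen, had a log2 fold change of 0.11 at an adjusted p of 1.00 in DESeq2. *ENO1* and *S100A10*, which encode plasminogen binding proteins, had log2 fold changes of -0.44 and -0.14 at DESeq2 adjusted p of 0.908 and 1.00. *PLG* itself had 2 reads in control 3 and none in the other libraries. The median log2 fold change of the genes of this list that passed the filter was -0.06, against -0.02 over all tested genes.

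The remaining TIMPs and the genes that activate or restrain metalloproteinases formed a list of 10, with 1 called higher and 0 lower, where the shares over all tested genes were 0.601% and 0.535%. *SPOCK1*, which encodes testican, an extracellular proteoglycan, had 172 and 72 reads in the controls and 402 and 308 in the cadmium libraries. Its groups did not overlap, with a log2 fold change of 1.56 ± 0.48 (SE) and adjusted p = 0.0986 by DESeq2, just under the threshold. The call was lost without either cadmium library, where the adjusted p-value was 1.00, and also with counts halved, at 0.185. The fold change depended on the control, at 2.20 on the log2 scale against control 3 alone and 1.10 against control 2 alone. *TIMP3* had 29620 normalized counts in control 2 and 105285 in control 3, against 46311 in cadmium 1 and 46826 in cadmium 2. *FURIN*, the convertase that activates the MMP14 precursor, had 17482, 3264, 4320 and 4224 in the same order. *FURIN* had a log2 fold change of -1.28, and the median over its 40 neighbours was -0.42. Their median log2 ratio of control 3 over control 2 was -0.63. In *TIMP3* and *FURIN*, 1 control stood apart and the cadmium libraries matched each other. Adjusted p in DESeq2 was 1.00 and 0.645. *BSG*, which encodes an inducer of metalloproteinases, had a log2 fold change of -0.37 at an adjusted p of 0.951 in DESeq2. The median log2 fold change of this list was -0.13.

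The other 17 metalloproteinases were low in abundance. Of these genes 10 passed the filter and 3 had no read in any library. None was called, and with 0.601% of all tested genes called higher and 0.535% lower, a count of 0 among 10 is near the background. The most abundant, *MMP15*, a membrane-bound enzyme, had 23.3 TPM in control 2 and 5.94 in control 3, against 11.1 in cadmium 1 and 8.24 in cadmium 2, and the cadmium libraries lay between the controls. *MMP17*, *MMP19* and *MMP24* stayed at or below 7.99 TPM, with log2 fold changes of 0.19, 0.23 and -0.44 at DESeq2 adjusted p of 1.00, 1.00 and 0.989. The median of the 10 genes was -0.24.

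Of 15 ADAM and ADAMTS proteases, which shed membrane proteins and cut proteoglycans, 13 passed the filter and none was called, again near the background of 0.601% higher and 0.535% lower. The most abundant were *ADAM8*, *ADAM15*, *ADAM9* and *ADAM10*, with log2 fold changes of -0.40, -0.12, 0.06 and -0.50 and a lowest DESeq2 adjusted p of 0.842, and the median of the list was -0.12. Among 18 cathepsins and cystatins, the lysosomal proteases and inhibitors of that class, 17 passed the filter, 1 was called higher and 0 lower, against 0.601% and 0.535% of all tested genes, with a median of -0.14. *CST1*, a secreted cystatin, had 765 normalized counts in control 2 and 2813 in control 3, against 7613 in cadmium 1 and 5543 in cadmium 2, with a log2 fold change of 1.88 ± 0.54 (SE) and adjusted p = 0.0613 by DESeq2. Its call was lost without cadmium 1, at an adjusted p-value of 1.00, and without cadmium 2, at 0.710. The fold change depended on the control, at 1.22 on the log2 scale against control 3 alone and 3.09 against control 2 alone. *CST4*, a close paralog that can share reads with it, had 379, 3120, 4698 and 3309 in the same order, with a DESeq2 adjusted p of 1.00. *CTSD* and *CST3* had log2 fold changes of -0.14 and -0.31, each with an adjusted p-value of 1.00.

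**Figure D5:**
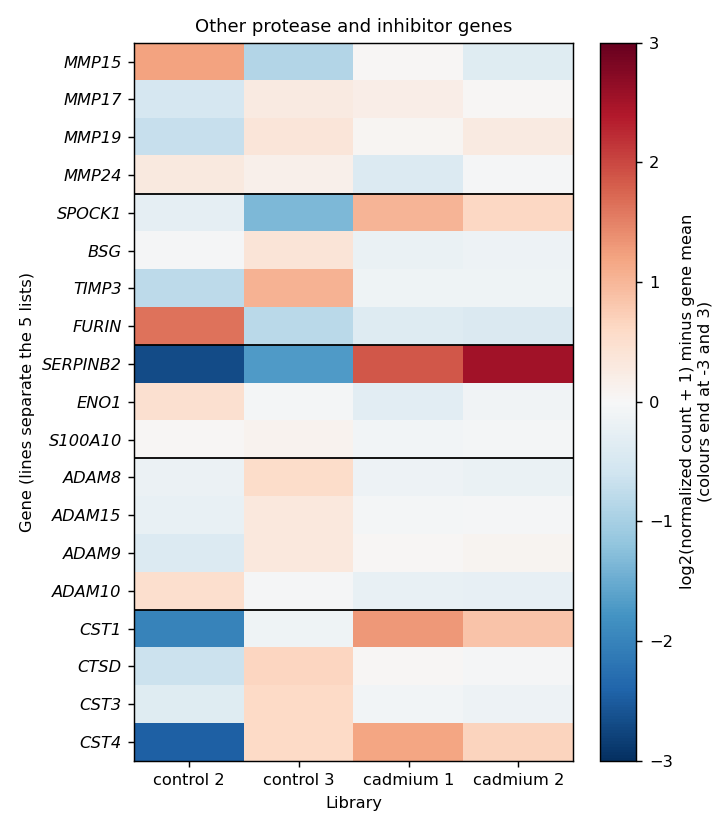
Log2(normalized count + 1) minus the gene's mean over the 4 libraries for the named genes of the 5 further lists, in colour, with libraries as columns. SERPINB2, SPOCK1 and CST1, the 3 genes called, are high in both cadmium libraries, whereas MMP15, FURIN and TIMP3 mainly separate control 2 from control 3.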

How the data were processed

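Total RNA was sequenced as read pairs. The authors trimmed adaptors with bbduk, used hisat2 for alignment (hg38) and featureCounts 2.0.1 for counting over Ensembl genes, and deposited raw counts per gene, which were used as they are. Default settings applied: strand was ignored, reads on several genes or places were dropped, and each mate was counted, so counts overstate fragments.

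Cadmium columns matched labelled replicates, and control columns were assigned by group only. Symbols matched 61369 of 61541 genes. DESeq2 1.42.0 in R 4.3.3 (Wald test, two-sided, Benjamini-Hochberg adjustment over all tested genes) was fitted with group as the design and a threshold of 0.1. Genes under 7.69 mean normalized counts fell to its independent filter. TPM were computed from counts and exon lengths. Alternatives used edgeR 4.0.16 (TMM, quasi-likelihood), limma 3.58.1 and the settings listed under the dependence on processing. With 2 libraries per group an exact permutation test cannot go below 0.333. Scripts were tested on simulated data. From each list every called gene was named, then the most abundant up to 4. 1 gene that the rule names is not reported here, though the counts and median of its list include it. Members and lists were chosen with earlier results of these data known. Plots used Python 3.11.15.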

Additional observations from a re-analysis of the deposited data

How the results depend on the processing

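No paired analysis was possible because control libraries are numbered differently in the table and in the labels, so the fit with a replicate block was left out. How many genes were called was set by the test and by the libraries. With edgeR and with limma-voom, 0 genes were called higher and 0 lower in place of 119 and 106, and 0 in place of 1 of the 9 genes, with 1422 and 1423 genes under an unadjusted p of 0.05. Without 1 library at a time, the calls ranged from 9 to 2678 higher and from 5 to 3511 lower, and those among the 9 genes from 0 to 3 higher and from 0 to 1 lower. In those fits the lone library is assumed to vary like the other group, which is the tight cadmium pair when a control is left out and the disparate control pair when a cadmium library is left out. *MMP1* kept its direction in all 13 alternatives, from 3.03 to 5.28 on the log2 scale, and missed the threshold with edgeR, limma-voom and without cadmium 2. *MMP14* ranged from 0.50 to 0.58. Signs turned for 5 genes. Leaving out libraries gave -0.65 to 0.053 for *TIMP1*, -1.72 to 4.14 for *MMP3*, -0.25 to 0.32 for *PLAU*, -0.95 to 1.79 for *MMP2* and -0.027 to 5.43 for *MMP9*, and *MMP2* was 0.39 with limma-voom and 0.0022 relative to its neighbours. *SPOCK1* missed the threshold in 8 of 13 alternatives and *CST1* in 6, among them no independent filtering, with adjusted p-values of 0.166 and 0.103. *SERPINB2* missed it with edgeR and limma-voom only, but had no adjusted p-value without cadmium 2. TMM or upper-quartile factors, a minimum of 10 counts in 2 libraries, a threshold of 0.05 and halved counts left the call of *MMP1* in place. Counts of 12 reads or fewer in every library limit *MMP3*, *MMP9* and *MMP13*. Low control counts also limit the fold changes of 2 called genes. *MMP1* had 12 reads in control 3, and *SERPINB2* had 4 in control 2 and 8 in control 3.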
